A study of Mus musculus with 36 samples.

Results

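The genes described here encode the mitochondrial ribosome and the factors that work with it. They are 82 of the 12795 genes in the count table. Taken were protein-coding genes whose symbols begin with Mrpl (46 genes) or Mrps (27 genes) and a digit, with Mrps2 left out. Added were 9 named factors (Trmt10c, Gfm1, Gfm2, Tufm, Tsfm, Mtif2, Mtif3, Mtrf1l and Mtfmt). Mrpl genes are counted as large-subunit and Mrps genes as small-subunit by symbol alone. The place of each protein was not checked. RNA was sequenced from flow-sorted macrophages of mouse hearts, in 36 libraries, to ask which transcripts respond to overexpression of TFEB, a transcription factor known for driving lysosomal genes. Mice carried Cx3cr1-er-Cre, a tamoxifen-inducible Cre driven by the Cx3cr1 gene, and a Td-Tomato reporter behind a floxed stop. They were fed tamoxifen, underwent 90 minutes of ischemia after 7 days of induction, and had their heart macrophages sorted 7 days after the injury into CCR2pos and CCR2neg fractions. In TFEB-TG mice a TFEB expression cassette stood behind a floxed stop sequence, and TFEB-wt mice had no cassette. Within each fraction there were 4 kinds of library. They were mac-TFEB (TFEB-TG with Cre, 4 libraries), CX3CR1-Cre (TFEB-wt with Cre, 5), TFEB-TG Cre-neg (cassette, titled Cre-neg, 4) and TFEB-wt Cre-neg (no cassette, titled Cre-neg, 5).

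Mitochondria translate a small set of proteins encoded by their own genome, all of them core parts of the respiratory chain and the ATP synthase. The ribosome that does this is built from mitochondrial ribosomal RNA and from proteins that are made in the cytosol and imported, so every gene described here lies in the nucleus. Initiation factors bring the formylated methionyl-tRNA to the small subunit, elongation factors deliver tRNAs and move the ribosome along, and release and recycling factors end the round.

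The libraries held 13797484 to 32645783 counts each, with a median of 19676039. Tfeb was at 60.4 to 335.0 CPM (counts scaled by library size) in mac-TFEB libraries, at 12.4 to 51.0 CPM in TFEB-TG Cre-neg libraries and at 4.42 to 11.5 CPM in TFEB-wt libraries. Every TFEB-TG Cre-neg library thus lay above every TFEB-wt library. Ccr2 was at 302 to 1247 CPM in CCR2pos libraries, against 27.3 to 114.5 CPM in CCR2neg libraries. All 8 macrophage markers were present, and their summed level ranged from 26750 to 42020 CPM. The 11 cardiomyocyte markers summed to 21.8 to 102 CPM in all libraries but TFEB-TG CCR2neg Cre-neg 1, where they reached 554 CPM. The 7 fibroblast markers summed to 48.2 to 597 CPM and the 6 endothelial markers to 12.2 to 204 CPM over the 36 libraries. Fibroblast markers were highest in CCR2neg TFEB-wt Cre-neg 4 (597 CPM), CCR2neg TFEB-TG Cre-neg 1 (566 CPM) and CCR2pos TFEB-wt Cre-neg 4 (540 CPM). The member sum, the call counts and the values of Trmt10c and Gfm1 in comparisons that use CCR2neg TFEB-TG Cre-neg 1 are given with and without it. The labels do not say that libraries came from separate animals, so a p-value measures only how these samples vary, and that variation may be technical. They also describe all the mice as carrying Cre and the reporter, and do not state how the Cre-neg libraries differed. In sorted bulk RNA, fewer cells of a type and less RNA per cell cannot be told apart.

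Every member was measured, and 81 of the 82 had at least 1 count in every library. The exception was Mtrf1l, a release factor homologue, which had no count in CCR2pos CX3CR1-Cre 3. The median member averaged 24.2 CPM over the 36 libraries, against 14.3 CPM for the median of all 12795 genes. Member means ran from 0.934 CPM for Mtrf1l to 105.8 CPM for Mrpl28, and 67 members averaged 10 CPM or more. CPM does not correct for gene length, so levels are compared between genes per kilobase of exon. Length is the union of all exons annotated for a gene, so annotated exons that these cells do not use lower its value.

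Per kilobase, the Mrpl genes had the higher levels and the 9 factors the lower ones. The Mrpl genes had a median level of 13.4 CPM per kilobase (range 1.63 to 76.7). The Mrps genes had 6.30 (range 0.257 to 61.2) and the 9 factors 2.69 (range 0.286 to 5.81). The 4 highest members were Mrpl28 at 76.7, Mrps21 at 61.2, Mrpl36 at 55.1 and Mrpl34 at 44.6 CPM per kilobase. The 4 lowest were Mrps30 at 0.257, Mtrf1l at 0.286, Mrps35 at 0.942 and Mrps26 at 1.02 CPM per kilobase. Among the factors, the initiation factor Mtif2 stood at 5.81, the translocase Gfm1 at 5.49, the exchange factor Tsfm at 5.43 and Trmt10c, a subunit of mitochondrial RNase P that also methylates tRNA, at 5.11 CPM per kilobase. The initiation factor Mtif3 (2.69), the tRNA-delivering factor Tufm (2.27), the initiator formyltransferase Mtfmt (2.07) and the recycling factor Gfm2 (2.01) followed at lower levels.

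**Figure D1:**
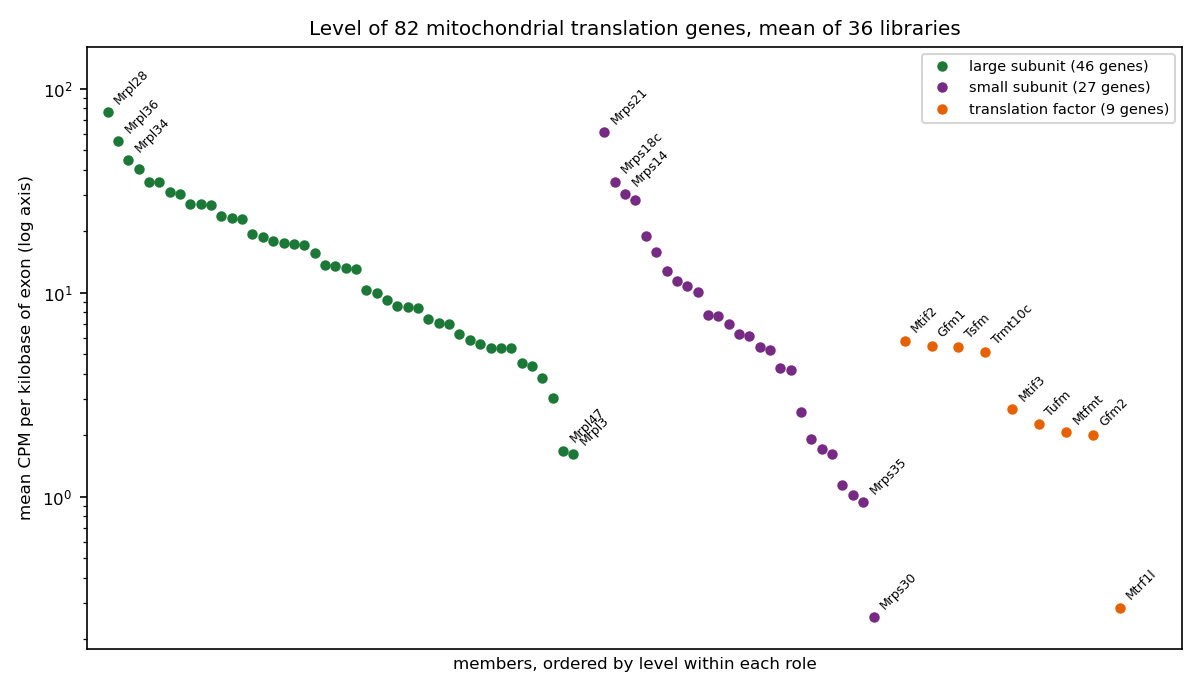
Mean level of each of the 82 genes over 36 libraries, in CPM per kilobase of exon on a log axis. Genes are ordered within large subunit and small subunit, both taken from the symbol, and the 9 factors, labelled translation factors. The 3 classes overlap, with medians of 13.4, 6.30 and 2.69 CPM per kilobase.

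The libraries were not strand-specific, per the labels' protocols, and some members lie on top of other genes. In the GENCODE vM21 annotation 35 members share exon bases with another gene, and 18 share 10% or more of their exon length. Mrps34 shares 77.8% of its exon bases with Mapk8ip3 on the other strand, and Mrps24 shares 15.4% with Urgcp on the same strand. Mrps18b shares 30.5% with the antisense gene Gm16279, Mrps27 shares 24.2% with 6430562O15Rik, Mrps6 shares 19.9% with Gm49711, and Mrpl46 shares 12.2% with another member, Mrps11. How reads were divided there is uncertain, and so are the values of these genes. Trmt10c and Tufm share no exon base with another gene, and Gfm1 shares 1.4% (with Lxn).

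Promoters were read because TFEB binds a known DNA motif and because the members are known to share promoter motifs. RefSeq sequences (GRCm38.p6) of 250 bases before to 50 bases after the start were found for 72 of the 82 members, and 4 stretches are shown with the motif matches in capitals. The CLEAR motif bound by TFEB, TCACGTGA, was present in 2 of the 72 members (2.78%), Mrpl2 and Mrps18c, against 1.12% of all 27025 genes with a promoter in the table. The shorter E-box CACGTG, which lies inside CLEAR, was present in 6.94% of the members and in 8.09% of all genes. The ETS motif CCGGAAG was present in 27 members, 37.5%, against 9.93% of all genes. The NRF1 motif CGCATGCG was present in 11.1% of the members and 2.07% of all genes, and the YY1 motif AAGATGGCG in 11.1% and 1.64%. Both strands were searched for each motif, and a match describes the letters only. Distances are from the RefSeq start, which can differ from the GENCODE one. For Trmt10c the RefSeq start and the ETS motif before it both lie inside the GENCODE gene, whose position is given below.
Trmt10c (chr16:56037787-56037848, minus strand, ETS motif 12 bases before the start): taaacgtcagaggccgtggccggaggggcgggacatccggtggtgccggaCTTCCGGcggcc
Mrpl2 (chr17:46646039-46646145, plus strand, CLEAR motif 132 bases before the start): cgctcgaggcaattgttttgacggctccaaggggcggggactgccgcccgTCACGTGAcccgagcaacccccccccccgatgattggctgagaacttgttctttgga
Mrps18c (chr5:100798545-100798659, plus strand, CLEAR motif 164 bases before the start, directly followed by an ETS motif at 156): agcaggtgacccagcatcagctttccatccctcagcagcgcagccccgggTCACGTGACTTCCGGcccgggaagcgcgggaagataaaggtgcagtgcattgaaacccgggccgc
Mrps18b (chr17:35916607-35916690, minus strand, NRF1 motif 224 bases before the start): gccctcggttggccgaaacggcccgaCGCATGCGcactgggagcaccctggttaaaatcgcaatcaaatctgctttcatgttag

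Trmt10c and Mrps18b are shown because they passed a test below, and Mrpl2 and Mrps18c because they carry the TFEB motif. Of the 8 members that passed a test in any comparison, 6 (Gfm1, Mrpl51, Mrps18b, Mrps27, Trmt10c and Tufm) hold an ETS motif in this window, and for Mrpl44 and Mrps6 none of the 5 motifs was found there.

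The members, which have a higher median level than all genes, varied less between libraries of the same group. The median within-group SD of log2 CPM was 0.207 for the members and 0.307 for all genes. The 4 most variable members were Mtrf1l (0.74), Mrps24 (0.67), Mrps34 (0.64) and Mrps30 (0.54), which are all low in level. After removing group means, a member's log2 CPM correlated with the mean of the other members at a median r of 0.488 over the 36 libraries, which share depth and normalization, and r exceeded 0.5 for 40 members. Mrps28 (0.84), Mrps17 (0.81) and Mrpl20 (0.81) followed the others most closely. For 13 members r was below 0, among them Mrps34 (-0.44), Mrps24 (-0.33), Mtfmt (-0.28), Mrpl3 (-0.27) and Gfm1 (-0.03).

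The summed level of the 82 members differed little between groups. It ranged from 1978 to 2778 CPM over the 36 libraries, a 1.404-fold range, while the 7 measured protein genes of the mitochondrial genome ranged 2.63-fold in sum (4799 to 12600 CPM) and the 75 proteins of the cytosolic ribosome 1.55-fold (6896 to 10690 CPM). In the CCR2neg fraction the members summed to 2266 ± 167 CPM in mac-TFEB libraries (SD, n = 4), 2218 ± 107 CPM in CX3CR1-Cre libraries (SD, n = 5), 2377 ± 283 CPM in TFEB-TG Cre-neg libraries (SD, n = 4; 2448 ± 299 CPM without number 1, n = 3) and 2389 ± 218 CPM in TFEB-wt Cre-neg libraries (SD, n = 5). In the CCR2pos fraction the sums were 2195 ± 202.7, 2281 ± 149, 2216 ± 103 and 2296 ± 71.2 CPM in the same order of groups. The groups overlapped in every comparison of these sums.

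**Figure D2:**
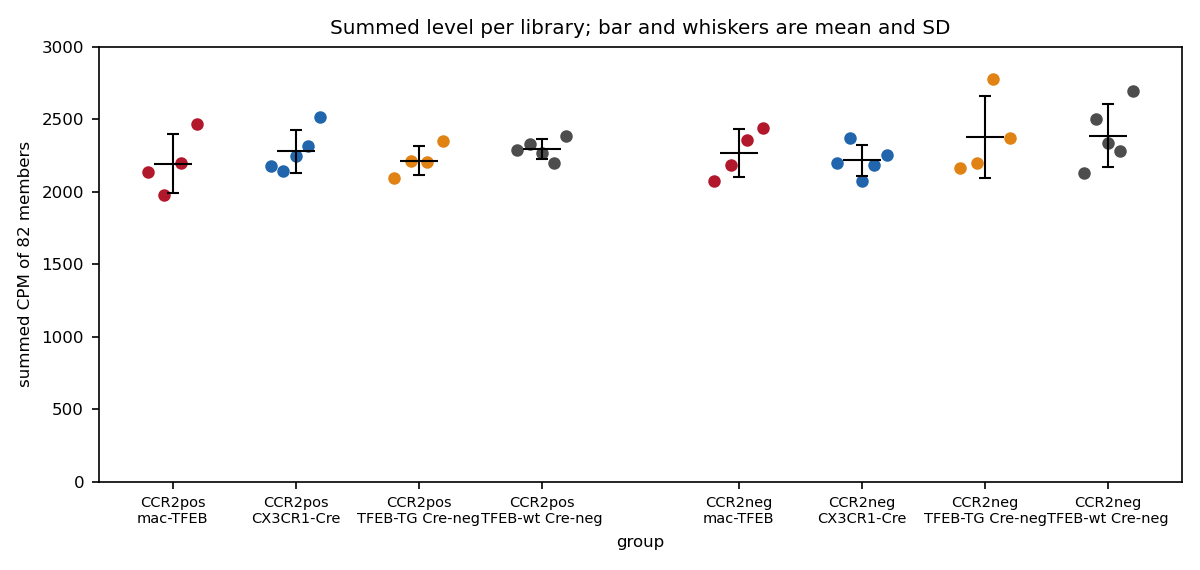
Summed CPM of the 82 members in each of the 36 libraries, by group, with mean and SD as bar and whiskers. The libraries lie between 1978 and 2778 CPM and all 8 groups overlap.

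The first comparison was TFEB overexpression itself, mac-TFEB against CX3CR1-Cre, and no member passed the test in either fraction. In CCR2neg macrophages 0 of the 82 members were called, meaning an adjusted p under 0.05 in edgeR's quasi-likelihood test with Benjamini-Hochberg adjustment over all genes, against 1.38% of all genes. At an unadjusted p under 0.05, 4 members were higher and 8 lower (14.6% of the members, and 14.6% of all genes), and DESeq2 called 1 member, Mrpl3, and 2.75% of all genes to which it gave an adjusted p. The median log2 fold change of the members was 0.06, beside 0.01 for all genes, and the 95% interval lay within 1 log2 unit of no change for 77 of the 82. In CCR2pos macrophages 0 members were called, against 0.0391% of all genes, with 1 member higher and 1 lower at an unadjusted p under 0.05, and DESeq2 called 0. There the median was -0.06 for the members and 0.00 for all genes, and 79 of the 82 intervals lay within 1 log2 unit. That limit is wide, and an interval inside it can still hold changes of the size called in members below.

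Among the ribosomal proteins, the member nearest to a call in the CCR2neg fraction was Mrpl3, a large-subunit protein. Mrpl3 was at 6.87, 9.27, 5.46 and 7.02 CPM in CCR2neg mac-TFEB libraries, against 13.1, 13.7, 11.5, 12.1 and 10.8 CPM in CCR2neg CX3CR1-Cre libraries. All 4 mac-TFEB libraries lay below all 5 CX3CR1-Cre libraries. The log2 fold change was -0.78 ± 0.23 (SE) with an adjusted p of 0.0936 in edgeR's test, and DESeq2 gave an adjusted p of 0.0370. Among CCR2pos cells the same comparison gave Mrpl3 a log2 fold change of -0.26 ± 0.23 (SE, edgeR adjusted p = 1.00). CCR2neg TFEB-TG Cre-neg libraries held Mrpl3 at 5.89 to 10.8 CPM, which overlapped the CCR2neg mac-TFEB values. Between the Cre-neg libraries of the 2 genotypes in that fraction its log2 fold change was -0.87 ± 0.23 (SE). TFEB and genotype cannot be told apart in mac-TFEB against CX3CR1-Cre.

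The other ribosomal proteins with the smallest p in the CCR2neg fraction were Mrps6 and Mrpl37 on the lower side and Mrpl46, Mrps11 and Mrpl19 on the higher side. Mrps6 had a log2 fold change of -0.37 ± 0.11 (edgeR adjusted p = 0.105) and Mrpl37 of -0.41 ± 0.13 (adjusted p = 0.130). Mrpl46 had 0.33 ± 0.13 (adjusted p = 0.230), Mrps11, whose exons overlap those of Mrpl46, 0.37 ± 0.15 (adjusted p = 0.235) and Mrpl19 0.25 ± 0.12 (adjusted p = 0.320). In the CCR2pos fraction the ribosomal proteins ranked first were Mrpl19 at 0.13 ± 0.12 and Mrpl48 at -0.18 ± 0.10 (adjusted p = 1.00 for both).

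None of the 9 factors was called under TFEB overexpression in either fraction. In CCR2neg macrophages the log2 fold changes were 0.00 for Gfm1, 0.11 for Gfm2, 0.20 for Tufm, -0.04 for Tsfm, 0.04 for Mtif2, -0.19 for Mtif3, -0.15 for Mtfmt, 0.31 for Mtrf1l and -0.27 for Trmt10c, with adjusted p of 0.343 for Trmt10c and higher for the others. In CCR2pos macrophages they were -0.25 for Gfm1, -0.03 for Gfm2, 0.15 for Tufm, 0.05 for Tsfm, -0.13 for Mtif2, -0.11 for Mtif3, 0.09 for Mtfmt and -0.25 for Trmt10c. Mtrf1l had the largest value, 1.396 ± 0.54 (SE, unadjusted p = 0.0148, edgeR adjusted p = 1.00). It was at 0.733, 0.865, 1.56 and 1.51 CPM in CCR2pos mac-TFEB libraries, against 0.324, 0.695, 0, 0.465 and 0.680 CPM in CCR2pos CX3CR1-Cre libraries. The mac-TFEB libraries all lay above the CX3CR1-Cre libraries, with no value over 1.56 CPM in either group.

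The second comparison was the cassette in libraries titled Cre-neg, TFEB-TG Cre-neg against TFEB-wt Cre-neg. Every TFEB-TG Cre-neg library also held more Tfeb than every TFEB-wt library, so the cassette is not seen here without extra Tfeb. Here 2 of the 9 named factors fell in the CCR2neg fraction. They were Trmt10c and Gfm1, the only 2 of the 82 members called (0 higher and 2 lower, 2.44% of the members), against 0.406% of all genes. At an unadjusted p under 0.05, 1 member was higher and 15 were lower, a count given without the share of all genes at that cut-off. The median log2 fold change of the members was 0.00, beside 0.02 for all genes, and 39 of the 82 values were below 0.

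Trmt10c (ENSMUSG00000044763, chromosome 16, 56032609 to 56037819) was at 8.86, 11.1, 12.9 and 10.2 CPM in CCR2neg TFEB-TG Cre-neg libraries, against 17.2, 18.1, 25.8, 18.7 and 18.9 CPM in CCR2neg TFEB-wt Cre-neg libraries. The groups did not overlap, and means were 10.8 ± 1.68 (SD, n = 4) and 19.7 ± 3.43 CPM (SD, n = 5). The log2 fold change was -0.87 ± 0.14 (SE, edgeR adjusted p = 9.12e-04). It was between -0.97 and -0.76 when any 1 of the 9 libraries was left out, and each of these fits called it. In the CCR2pos fraction the cassette comparison gave Trmt10c 0.00 ± 0.13 (adjusted p = 1.00), from 14.3, 15.8, 16.1 and 16.1 CPM in TFEB-TG Cre-neg libraries and 13.1, 14.1, 17.7, 17.6 and 15.5 CPM in TFEB-wt Cre-neg libraries, which overlapped. The difference between the 2 fractions' cassette effects, a comparison added after these values were seen, was 0.87 ± 0.19 (SE, unadjusted p = 5.82e-05, edgeR adjusted p = 0.344), and 0.78 without CCR2neg TFEB-TG Cre-neg 1 (adjusted p = 0.516). In that added comparison 0 of the 82 members and 0.0% of all genes were called, with 3 members higher and 1 lower at an unadjusted p under 0.05, and DESeq2 called 0 members. Without that library 0 members were called as well, with 5 higher and 2 lower at an unadjusted p under 0.05.

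Gfm1 (ENSMUSG00000027774, chromosome 3, 67430096 to 67476529) was at 16.5, 21.6, 21.1 and 21.8 CPM in CCR2neg TFEB-TG Cre-neg libraries, against 32.1, 29.8, 32.6, 23.0 and 31.5 CPM in CCR2neg TFEB-wt Cre-neg libraries. The groups did not overlap, and TFEB-wt Cre-neg 4, at 23.0 CPM, lay closest to the TFEB-TG libraries. The log2 fold change was -0.56 ± 0.11 (SE, edgeR adjusted p = 0.0247). Fibroblast markers summed to 58.0 to 566 CPM in the TFEB-TG libraries, against 72.6 to 597 CPM in the TFEB-wt libraries, and endothelial markers to 12.2 to 171 CPM, against 22.9 to 94.9 CPM. TFEB-wt Cre-neg 4 had the highest level of its group for fibroblast markers (597 CPM, the others up to 88.6), endothelial markers (94.9, the others up to 27.3) and cardiomyocyte markers (102, the others up to 39.9). Without it Gfm1 was at -0.64 (adjusted p = 0.00292) and Trmt10c at -0.89 (adjusted p = 0.00187). The Gfm1 call was lost without TFEB-TG Cre-neg 3 (adjusted p = 0.0630), without TFEB-wt Cre-neg 3 (0.0708) and without TFEB-wt Cre-neg 5 (0.0523). The cassette comparison in CCR2pos cells gave Gfm1 -0.28 ± 0.11 (adjusted p = 1.00).

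**Figure D3:**
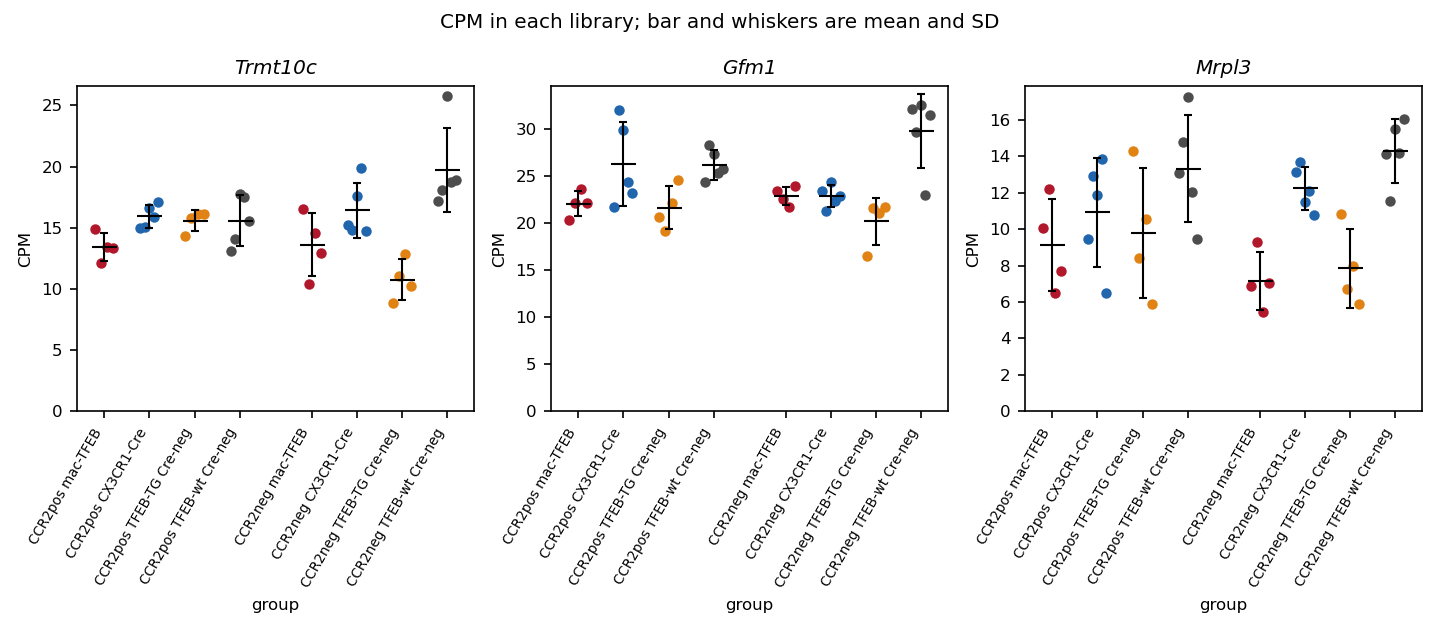
CPM of Trmt10c, Gfm1 and Mrpl3 in each library of the 8 groups, with mean and SD as bar and whiskers. In the CCR2neg fraction the TFEB-TG Cre-neg libraries lie below the TFEB-wt Cre-neg libraries for all 3 genes, with Trmt10c at 8.86 to 12.9 CPM against 17.2 to 25.8 CPM.

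Fitted on the 9 libraries of this comparison alone, neither gene was called (adjusted p = 0.427 for Trmt10c and 0.494 for Gfm1), while the fold changes stayed at -0.88 and -0.56. Cardiomyocyte markers summed to 554, 34.5, 61.3 and 45.5 CPM in the TFEB-TG libraries, against 36.2 to 102 CPM in the TFEB-wt libraries, and Myh6, a heart muscle myosin, was at 80.3 CPM in TFEB-TG Cre-neg 1. The 22 cell division genes summed to 440 to 877 CPM, against 377 to 482 CPM. Without TFEB-TG Cre-neg 1, Trmt10c was at -0.79 (adjusted p = 0.00507) and Gfm1 at -0.47 (adjusted p = 0.0206), and 7 members were called, all lower (8.54%), against 3.44% of all genes in the same fit. The others were Mrpl3 at -1.05, Mrpl37 at -0.52, Mrps15 at -0.61, Mrps24 at -1.69 and Mrps34 at -1.80, and the median of all members was 0.08. Without TFEB-wt Cre-neg 2, 4 members were called, against 1.38% of all genes. The part of the cell division genes in these results was not tested.

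Several ribosomal proteins came close to a call in the CCR2neg cassette comparison, all on the lower side. Mrpl3 was at 10.8, 6.72, 8.00 and 5.89 CPM in TFEB-TG Cre-neg libraries, against 14.1, 11.5, 15.5, 14.2 and 16.04 CPM in TFEB-wt Cre-neg libraries. These groups did not overlap, and the log2 fold change was -0.87 ± 0.23 (SE, edgeR adjusted p = 0.0783). Mrps24 was at 3.54, 3.92, 1.23 and 2.17 CPM, against 7.80, 4.201, 9.26, 7.28 and 11.1 CPM in TFEB-wt Cre-neg libraries, a log2 fold change of -1.55 ± 0.44 (adjusted p = 0.0879). Mrps34 was at 3.22, 2.26, 0.148 and 1.496 CPM, against 3.08, 4.06, 4.98, 5.19 and 5.49 CPM, a log2 fold change of -1.37 ± 0.39 (adjusted p = 0.0881). Mrps24 did not overlap between the groups and Mrps34 did, in 1 library. The next was Mrpl12, a protein of the ribosomal stalk, at -0.48 ± 0.14 (adjusted p = 0.0969). DESeq2 called these 4 along with Trmt10c and Gfm1 (7.32% of the members), against 2.93% of all genes. On the higher side the smallest p-values belonged to Mrpl27 at 0.26 ± 0.10 (adjusted p = 0.250), Mrpl24 at 0.19 ± 0.10 and Mrpl44 at 0.26 ± 0.13.

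Among CCR2pos cells the cassette comparison called 0 of the 82 members, against 0.0313% of all genes. At an unadjusted p under 0.05, 0 members were higher and 2 lower, Gfm1 and Mrps26 (-0.62 ± 0.30), and DESeq2 called 0. The median log2 fold change of the members was -0.05, beside 0.00 for all genes.

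Cre status was compared within each genotype. CX3CR1-Cre against TFEB-wt Cre-neg in the CCR2neg fraction called 1 of the 82 members (0 higher and 1 lower, 1.22%), against 2.6% of all genes, and this was again Gfm1. It was at 23.4, 21.3, 24.4, 22.4 and 22.9 CPM in CCR2neg CX3CR1-Cre libraries, against the 23.0 to 32.6 CPM of the CCR2neg TFEB-wt Cre-neg libraries already given. Both this comparison and the cassette comparison use those 5 Cre-neg libraries, so the 2 results on Gfm1 are not independent. The groups overlapped through TFEB-wt Cre-neg 4, the library high in fibroblast, endothelial and cardiomyocyte markers. The 7 fibroblast markers summed to 56.2 to 377 CPM in the CX3CR1-Cre libraries, against 72.6 to 597 CPM in the TFEB-wt Cre-neg libraries. The log2 fold change of Gfm1 was -0.38 ± 0.10 (SE, edgeR adjusted p = 0.0372), and the call was lost in 8 of the 10 fits that left out 1 library, with adjusted p up to 0.0971. It was kept without CX3CR1-Cre 3 (0.0367) and without TFEB-wt Cre-neg 4 (log2 fold change -0.46, adjusted p = 0.00814). With only the libraries of the comparison in the fit, 0 members were called.

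At an unadjusted p under 0.05, 9 members were lower in this comparison, Gfm1 included, and 1 was higher, given without the share of all genes. The median log2 fold change of the members was -0.12, beside 0.01 for all genes, and 67 of the 82 values were below 0. It was -0.19 without TFEB-wt Cre-neg 1 and -0.09 without TFEB-wt Cre-neg 5. Within groups the median member deviation of a library had an SD of 0.103, members moved together between libraries, and the members were not tested as a set. Same-numbered libraries deviated together in this comparison, and with the replicate number as a block 4 members were called, all lower, against 7.54% of all genes. They were Gfm1 at -0.38 (adjusted p = 0.0134), Mrpl20 at -0.36 (0.0204), Mrpl46 at -0.41 (0.0243) and Mrps28 at -0.43 (0.0472). Mrpl20 and Mrps28 are among the members that followed the rest most closely between libraries. On the higher side stood Mrps6 at 0.29 ± 0.11 (edgeR adjusted p = 0.181 without the block), Mrpl37 at 0.22 ± 0.12 and Mrps26 at 0.46 ± 0.28.

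The same comparison in the CCR2pos fraction called 0 members, against 0.00782% of all genes, and DESeq2 called 0. No member reached an unadjusted p under 0.05 there (0 higher and 0 lower), and Gfm1 was at 0.00 ± 0.10. The smallest p-values belonged to Mrpl45 at 0.19 ± 0.09, Mrps31 at 0.20 ± 0.12 and Mrpl49 at 0.21 ± 0.14 on the higher side. On the lower side they belonged to Mtrf1l at -1.04 ± 0.52, the peptidyl-tRNA hydrolase Mrpl58 at -0.23 ± 0.13 and Mrps10 at -0.29 ± 0.17.

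mac-TFEB against TFEB-TG Cre-neg called 0 members in the CCR2neg fraction, against 0.156% of all genes, with 1 higher and 1 lower at an unadjusted p under 0.05 and 0 called by DESeq2. Trmt10c was the higher one, at 16.5, 10.4, 14.6 and 12.9 CPM in CCR2neg mac-TFEB libraries beside the 8.86 to 12.9 CPM of the TFEB-TG Cre-neg libraries, which overlapped and were used in the cassette comparison too. Its log2 fold change was 0.34 ± 0.14 (SE, edgeR adjusted p = 0.504), and 0.25 without TFEB-TG Cre-neg 1 (adjusted p = 0.629). Without that library 0 members were called, against 0.25% of all genes, with 2 higher and 7 lower at an unadjusted p under 0.05. Mrps35 at 0.27 ± 0.18 and Gfm1 at 0.18 ± 0.12 (0.09 without it) followed, and Mrpl27 was lowest by p at -0.26 ± 0.11 (adjusted p = 0.521), with Mrpl41 at -0.28 ± 0.15 and Mrps16 at -0.31 ± 0.17 after it. In the CCR2pos fraction 0 members were called, against 0.0156% of all genes, 0 had an unadjusted p under 0.05, and DESeq2 called 0. Mrps26 at 0.43 ± 0.31 and Trmt10c at -0.21 ± 0.14 had the smallest p in each direction there.

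The study's design asks for TFEB effects apart from those of the cassette alone, and this was tested as the difference of 2 differences. The value set mac-TFEB over TFEB-TG Cre-neg against CX3CR1-Cre over TFEB-wt Cre-neg. TFEB-TG Cre-neg libraries themselves held more Tfeb than TFEB-wt libraries, as given above. The contrast therefore takes away a group that already had extra Tfeb. In the CCR2neg fraction 0 members and 0.0% of all genes were called, 2 members were higher and 0 lower at an unadjusted p under 0.05, and DESeq2 called 0 members. These 2 were Gfm1 at 0.56 ± 0.16 (SE, unadjusted p = 0.00102, edgeR adjusted p = 0.872) and Trmt10c at 0.60 ± 0.19 (unadjusted p = 0.00315, adjusted p = 0.999). Without TFEB-TG Cre-neg 1 they were at 0.46 (adjusted p = 0.982) and 0.51 (adjusted p = 1.00), 0 members were called, and 3 were higher and 0 lower at an unadjusted p under 0.05. Mrps22 followed at 0.50 ± 0.26. For both genes the contrast holds the CCR2neg Cre-neg libraries whose values are given above. Among CCR2pos cells 0 members and 0.0% of all genes were called, with Mtrf1l higher at 1.73 ± 0.77 and Mrps31 lower at -0.38 ± 0.18 at an unadjusted p under 0.05, and DESeq2 called 0.

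The TFEB effect was also compared between fractions, CCR2pos minus CCR2neg. There 0 members and 0.0% of all genes were called, and DESeq2 called 0 members. Mrps6 at 0.37 ± 0.16 and Mrps12, a protein of the decoding centre, at 0.59 ± 0.27 were higher at an unadjusted p under 0.05, and Mrpl46 at -0.39 ± 0.19 was lower (edgeR adjusted p = 1.00 for all 3).

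**Figure D4:**
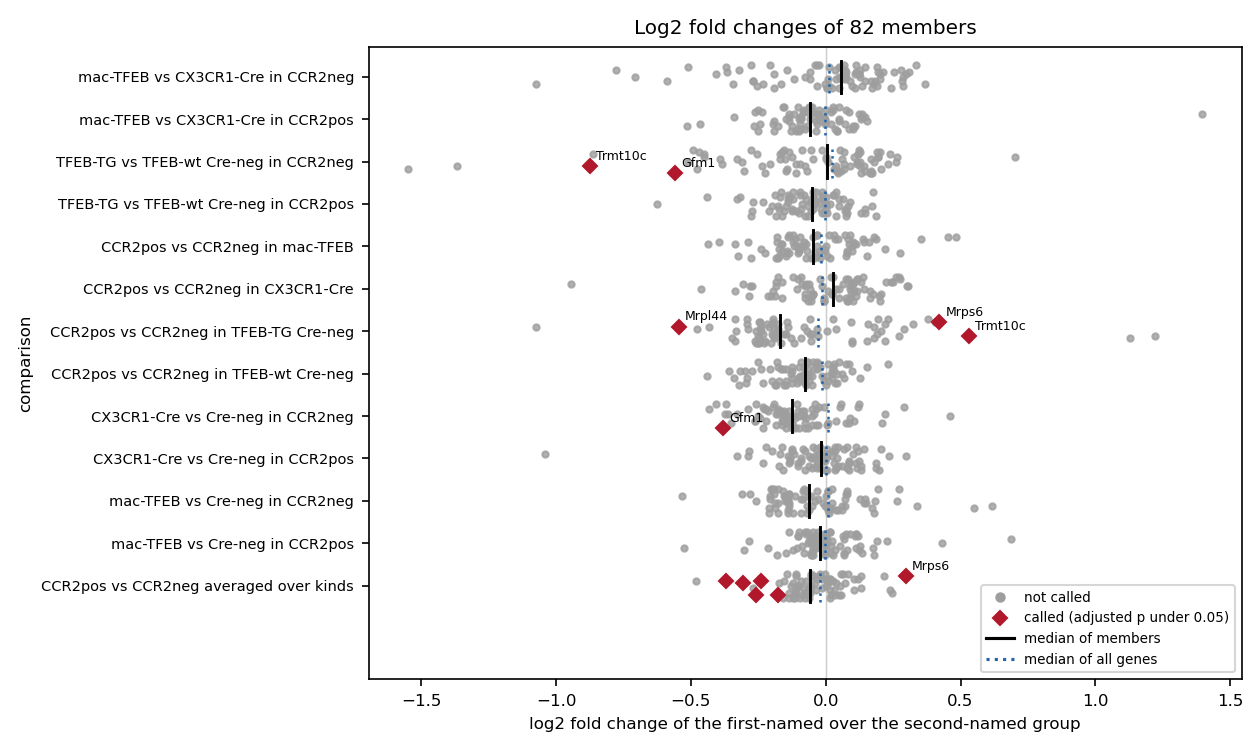
Log2 fold changes of the 82 members in each comparison, with the first-named group over the second. Each point is 1 gene, diamonds mark members called by edgeR (adjusted p under 0.05), and the lines mark the medians of the members and of all genes. The called members are Trmt10c and Gfm1 for the cassette in CCR2neg cells, Gfm1 for CX3CR1-Cre, and others between the CCR2 fractions.

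The 2 macrophage fractions were compared next, CCR2pos against CCR2neg, averaged over the 4 kinds of library. Here 6 of the 82 members were called (7.32%), 1 higher and 5 lower, against 13.9% of all genes. At an unadjusted p under 0.05, 2 members were higher and 11 lower, given without the share of all genes. The median log2 fold change of the members was -0.06, beside -0.02 for all genes. Mrps6 rose in CCR2pos macrophages, and Mrpl44, Mrpl51, Mrps18b, Mrps27 and Tufm fell. These comparisons are of libraries that share a replicate number across the fractions, which deviated together. With that number as a block 9 members were called, against 21.1% of all genes, and these also included Mrpl19 at -0.15, Mrpl45 at -0.11 and Mrpl47 at -0.30. Without CCR2neg TFEB-TG Cre-neg 1, 7 members were called (8.54%), against 14.0% of all genes, with Mrpl19 at -0.17 and Mrps12 at 0.27 added and Mrps27 no longer called. Trmt10c was then at 0.01 and Gfm1 at 0.00.

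Of the 2 large-subunit proteins that fell, Mrpl44 had the smallest p. Mrpl44 (ENSMUSG00000026248, chromosome 1, 79776018 to 79781445) had a lowest, median and highest level of 10.97, 13.9 and 17.7 CPM in the 18 CCR2pos libraries, against 13.6, 17.8 and 22.7 CPM in the 18 CCR2neg libraries. It was lower in the CCR2pos library of 16 of the 18 same-numbered pairs, although the 2 fractions overlapped. Each number of a genotype gives a pair with Cre and a Cre-neg pair. Such libraries deviated together across Cre status (mean correlations 0.418 to 0.621), so the 18 pairs may not be independent. The log2 fold change was -0.37 ± 0.07 (SE, edgeR adjusted p = 1.60e-04). Mrpl51 averaged 20.6 ± 2.99 CPM in CCR2pos libraries and 24.6 ± 3.70 CPM in CCR2neg libraries (SD, n = 18 each), with a log2 fold change of -0.26 ± 0.07 (edgeR adjusted p = 0.0127). It too was lower in 16 of 18 pairs.

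Of the 27 Mrps genes, 1 rose and 2 fell. Mrps6 (ENSMUSG00000039680, chromosome 16, 92058270 to 92112227) had a lowest, median and highest level of 11.1, 12.96 and 16.4 CPM in CCR2pos libraries, against 8.33, 10.7 and 13.9 CPM in CCR2neg libraries. It was higher in the CCR2pos library of 17 of 18 pairs, with overlap, and the log2 fold change was 0.30 ± 0.06 (SE, edgeR adjusted p = 3.22e-04). Mrps18b averaged 8.19 ± 1.13 CPM in CCR2pos libraries and 9.59 ± 1.51 CPM in CCR2neg libraries (SD, n = 18 each), a log2 fold change of -0.24 ± 0.08 (adjusted p = 0.0314), and was lower in 17 of 18 pairs. Mrps27 averaged 21.3 ± 2.97 CPM and 24.0 ± 1.71 CPM in CCR2pos and CCR2neg libraries, a log2 fold change of -0.18 ± 0.06 (adjusted p = 0.0443), and was lower in 15 of 18 pairs. Mrps18b lost its call without CCR2pos mac-TFEB 2, CCR2neg mac-TFEB 4, CCR2pos TFEB-TG Cre-neg 1 or 2, CCR2neg TFEB-TG Cre-neg 3 or 4, or CCR2neg TFEB-wt Cre-neg 2 (adjusted p from 0.0518 to 0.0692). Mrps27 lost it in 24 of the 36 fits without 1 library, spread over all 8 groups (up to 0.0843). Mrps18b, Mrps27 and Mrps6 all share at least 19.9% of their exon bases with a neighbour.

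Among the factors Tufm fell, and it shares no exon base with another gene. Tufm (ENSMUSG00000073838, chromosome 7, 126487361 to 126490731) had a lowest, median and highest level of 3.21, 4.27 and 5.30 CPM in CCR2pos libraries, against 4.49, 5.37 and 6.24 CPM in CCR2neg libraries. It was lower in 16 of 18 pairs, and 10 of the 18 CCR2pos libraries lay below every CCR2neg library. The log2 fold change was -0.31 ± 0.08 (SE, edgeR adjusted p = 0.00515). The other 8 factors were not called, with log2 fold changes of 0.01 for Gfm1, -0.09 for Gfm2, -0.06 for Tsfm, -0.01 for Mtif2, -0.16 for Mtif3 (adjusted p = 0.150), 0.01 for Mtfmt, -0.48 for Mtrf1l and 0.03 for Trmt10c.

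**Figure D5:**
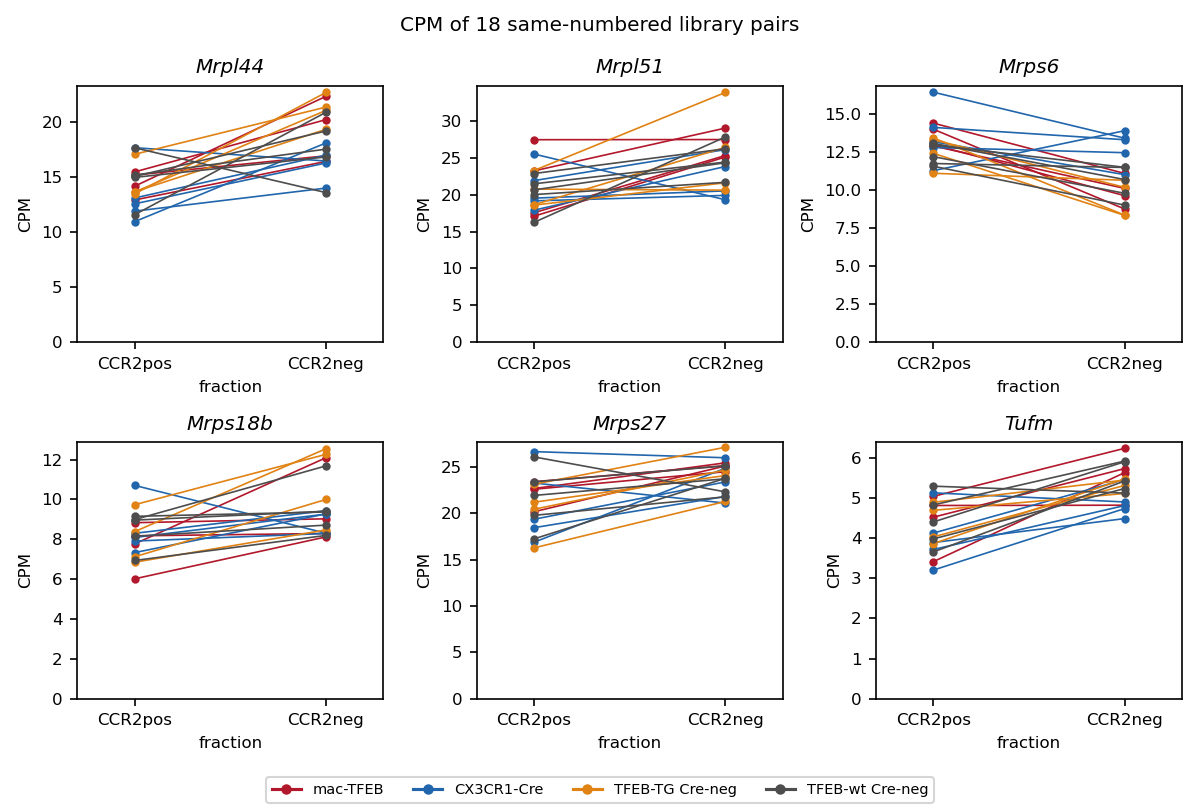
CPM in the CCR2pos and CCR2neg library of 18 same-numbered pairs, coloured by kind, for members called between the fractions. Lines mostly slope 1 way for each gene, with Mrps6 higher in CCR2pos in 17 of 18 pairs and Mrpl44 lower in 16 of 18. Pairs of the same number and genotype may not be independent.

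Within single kinds of library, edgeR without the replicate block called members between the fractions in TFEB-TG Cre-neg cells, and with the block in mac-TFEB cells too, which is not a test that the kinds differ. In TFEB-TG Cre-neg cells without the block 3 members were called (2 higher and 1 lower, 3.66%), against 3.26% of all genes. Mrps6 was at 11.1, 12.4, 13.3 and 13.4 CPM in CCR2pos TFEB-TG Cre-neg libraries, against 10.6, 8.33, 10.2 and 8.35 CPM in CCR2neg ones (log2 fold change 0.42 ± 0.12, SE, edgeR adjusted p = 0.0448). Trmt10c was higher at 14.3 to 16.1 CPM, against 8.86 to 12.9 CPM (0.53 ± 0.14, adjusted p = 0.0291), using the CCR2neg libraries of the cassette comparison again. Mrpl44 was at 13.7, 17.1, 13.5 and 13.7 CPM, against 19.4, 21.4, 22.7 and 21.1 CPM (-0.55 ± 0.14, adjusted p = 0.0247).

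Those 3 calls each depended on single libraries. Mrpl44 lost its call without CCR2pos 1, 3 or 4 or CCR2neg 2 or 3 (adjusted p from 0.0507 to 0.0774). Trmt10c lost it without CCR2pos 2, 3 or 4 or CCR2neg 1 or 4 (0.0634 to 0.0853), and Mrps6 without any library but the 2 numbered 1 (0.0544 to 0.133). The libraries of the comparison alone gave 0 calls. Without CCR2neg 1, 4 members were called (4.88%), against 4.75% of all genes, namely Mrpl37 at 0.49 (adjusted p = 0.0246), Mrps34 at 1.66 (0.0193), Mrps6 at 0.48 (0.0242) and Mrpl44 at -0.59 (0.0204). Trmt10c was then at 0.45 (adjusted p = 0.0853) and Gfm1 at 0.01, against 0.10 with it. With the replicate block 7 members were called, against 9.6% of all genes. The added ones were Mrps34 at 1.45 (adjusted p = 0.00455) and Mrps24 at 1.14 (0.0348) on the higher side, and Mrps18b at -0.43 (0.0463) and Mrpl27 at -0.33 (0.0386) on the lower side. The median log2 fold change of the members was -0.17, beside -0.03 for all genes, and -0.07 without CCR2neg TFEB-TG Cre-neg 3, the library with the highest member sum. Cardiomyocyte markers differed here too, at 38.3 to 57.6 CPM in CCR2pos TFEB-TG Cre-neg libraries, against 34.5 to 554 CPM in CCR2neg ones, and their part in these values was not tested.

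In mac-TFEB cells 0 members were called between the fractions, against 0.539% of all genes, with 2 higher and 5 lower at an unadjusted p under 0.05, and DESeq2 called Mrps6 and 1.43% of all genes. Mrps6 was at 12.9, 13.98, 14.4 and 12.96 CPM in CCR2pos mac-TFEB libraries, against 10.1, 8.75, 11.1 and 9.62 CPM in CCR2neg mac-TFEB libraries, with no overlap. Its log2 fold change was 0.45 ± 0.12 (SE, edgeR adjusted p = 0.0794), and with the replicate block it was 0.46 (adjusted p = 0.0216) and the only member called, against 3.76% of all genes. Mrps12 at 0.48 ± 0.20, Mrpl44 at -0.39 ± 0.14, Mrpl48 at -0.23 ± 0.10 and Mrpl51 at -0.33 ± 0.15 had the next smallest p (adjusted p of 0.285 or more).

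In CX3CR1-Cre cells 0 members were called, against 0.797% of all genes, 3 were higher and 1 lower at an unadjusted p under 0.05, and DESeq2 called 0. Mrpl36 at 0.26 ± 0.11, Mrpl39 at 0.27 ± 0.13 and Mrpl46 at 0.27 ± 0.13 were the 3, and Mrpl44 at -0.31 ± 0.13 was the lower one. In TFEB-wt Cre-neg cells 0 members were called, against 2.35% of all genes, 1 was higher and 4 lower at an unadjusted p under 0.05, and DESeq2 called 0. Mrps6 at 0.23 ± 0.11 was the higher one, and Trmt10c at -0.34 ± 0.13, Mtif3 at -0.32 ± 0.13 and Tufm at -0.32 ± 0.14 were among the lower ones (edgeR adjusted p from 0.194 to 0.395). Mrpl44 was below 0 in all 4 kinds (-0.39, -0.31, -0.55 and -0.24) and Mrps6 above 0 in all 4 (0.45, 0.08, 0.42 and 0.23), for mac-TFEB, CX3CR1-Cre, TFEB-TG Cre-neg and TFEB-wt Cre-neg cells.

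Genes around the mitochondrial ribosome were then looked at in the CCR2neg fraction, for TFEB overexpression, the cassette and Cre status. In CCR2neg macrophages under TFEB overexpression edgeR called 0 of 5 ribosomal proteins named outside the Mrpl and Mrps scheme, 0 of 25 assembly factors, 0 of 20 mitochondrial aminoacyl-tRNA synthetases, 0 of 23 tRNA and mRNA handling genes, 0 of 16 transcription and biogenesis genes and 0 of 7 protein genes of the mitochondrial genome. In that comparison edgeR called 1.38% of all genes, a share at which lists this short hold few calls. DESeq2 called 0 in each of these lists, against 2.75% of all genes. At an unadjusted p under 0.05 edgeR gave 1, 7, 3, 1, 1 and 0, and the share of all genes is given above with the members. The 7 mitochondrial protein genes were all below 0, at a median log2 fold change of -0.19, but none was called. In the CCR2neg cassette comparison, where 0.406% of all genes were called, 1 of these genes fell. It was Gtpbp3, which modifies mitochondrial tRNA (log2 fold change -1.54 ± 0.36, SE, edgeR adjusted p = 0.0396). CCR2neg CX3CR1-Cre against TFEB-wt Cre-neg cells called 2.6% of all genes. There Dap3, a small-subunit protein of the mitochondrial ribosome, fell by 0.47 on the log2 scale (SE 0.12, edgeR adjusted p = 0.0176).

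Between the fractions, averaged over the 4 kinds, the 7 protein genes of the mitochondrial genome were all below 0 in CCR2pos macrophages, at a median log2 fold change of -0.24 beside -0.02 for all genes. edgeR called 0 of them (0 higher and 4 lower at an unadjusted p under 0.05, the smallest adjusted p being 0.0619 for mt-Nd5 at -0.30 ± 0.11). With the replicate block 6 were called, all lower, against 21.1% of all genes, and DESeq2 called 2, both lower, against 15.4%. Their sum was 5743 ± 412 CPM in CCR2pos and 6659 ± 306 CPM in CCR2neg mac-TFEB libraries (SD, n = 4 each), and lower in the CCR2pos library of 4 of 4 pairs. In CX3CR1-Cre libraries it was 6478 ± 2202 CPM in CCR2pos and 7463 ± 1760 CPM in CCR2neg (SD, n = 5 each), lower in 3 of 5 pairs. In TFEB-TG Cre-neg libraries it was 6990 ± 1229 CPM in CCR2pos and 10260 ± 1895 CPM in CCR2neg (SD, n = 4 each), lower in 4 of 4 pairs. In TFEB-wt Cre-neg libraries it was 8321 ± 2533 CPM in CCR2pos and 8685 ± 1963 CPM in CCR2neg (SD, n = 5 each), lower in 3 of 5 pairs. The sum was thus lower in 14 of 18 pairs, which may not be independent, and its part in the member values was not tested.

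In the same comparison 5 nuclear genes of these lists fell in CCR2pos macrophages and 1 rose. Of 25 assembly factors 0 rose and 2 fell, Rcc1l at -0.65 ± 0.19 and Mtg1 at -0.23 ± 0.06. Of 20 synthetases 0 rose and 1 fell, Lars2 at -0.17 ± 0.06, and of 23 tRNA and mRNA handling genes 0 rose and 2 fell, the release factor Mtrf1 at -0.34 ± 0.08 and Ptcd2 at -0.18 ± 0.05. Of 16 transcription and biogenesis genes 1 rose, Gabpb1, the partner of an ETS-family DNA-binding protein, at 0.24 ± 0.06, and 0 fell. In the cytosol 4 of 18 translation factors rose and 0 fell, Eif4e at 0.39 ± 0.06, Etf1 at 0.27 ± 0.05, Eif4a1 at 0.25 ± 0.04 and Eif5 at 0.20 ± 0.06. Of the 75 cytosolic ribosomal proteins edgeR and DESeq2 called 0, with 3 higher and 1 lower at an unadjusted p under 0.05. The share of all genes called in this comparison was the 13.9% given above.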

How the data were processed

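Polyadenylated RNA was sequenced as 50-base single reads without strand, per the labels' protocols. The authors deposited 1 table of raw counts per gene. The submitters' processing notes name Bowtie2, TopHat2 2.0.10, HTSeq, DESeq and edgeR with build GRCm38; which filter chose the 12795 genes is not stated there. All 36 libraries entered 1 edgeR 4.0.16 fit (R 4.3.3) of 8 group means with TMM scaling and a quasi-likelihood F-test, and p-values were adjusted by Benjamini-Hochberg over all 12795 genes. CPM were computed with TMM-adjusted library sizes. Values after ± are standard errors beside a log2 fold change and SDs beside a CPM mean, and 95% intervals use the t quantile. Counts at an unadjusted p under 0.05 that have no share of all genes beside them describe the members only. The steps were tested on simulated counts. These had the same spread setting for all genes and no link between same-numbered libraries, so that test did not cover the pairing.

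The members and gene lists were chosen with earlier results of these data known. Named, with some left out for length, are members called in any comparison, the 3 with the smallest p in each direction per comparison, the 9 factors in the TFEB and averaged fraction comparisons, the extremes of level and spread, and called genes of the lists; genes that came close to a call in the cassette comparison were added after their values were seen. The cytosolic ribosomal list was taken by symbol pattern, leaving out the Rps6k kinases. Replicate numbers come from the library titles. Within a genotype, deviations of same-numbered libraries from their group means correlated at 0.129 to 0.692 in every pair, so the numbers were taken to pair them; between genotypes the correlations were -0.407 to 0.23, so they were not. No 2 libraries of a group agreed within sampling noise (chi-square over degrees of freedom of 19.9 or more in 64 pairs). Alternatives were DESeq2 1.42.0 size factors and Wald test, other filters on low counts, the replicate block, a term for sex read from Xist, the libraries of a comparison alone, and leaving out each library.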

Additional observations from a re-analysis of the deposited data

Results flagged for a closer look

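Outlying libraries were looked for in the 8 called members and the summed level of all members over the 8 groups, 72 groups of values in all, where chance marks about 1 in 20, and 4 were found. Gfm1 was at 16.5 CPM in TFEB-TG CCR2neg Cre-neg 1, with the other 3 libraries of the group at 21.1 to 21.8 CPM. Trmt10c was at 25.8 CPM in TFEB-wt CCR2neg Cre-neg 3, with the other 4 at 17.2 to 18.9 CPM. Mrpl44 was at 17.1 CPM in TFEB-TG CCR2pos Cre-neg 2, with the other 3 at 13.5 to 13.7 CPM. Mrps18b was at 10.7 CPM in TFEB-wt CCR2pos CX3CR1-Cre 5, with the other 4 at 7.33 to 8.30 CPM.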

How the results depend on the processing

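No called value changed sign under any alternative that was run. The median log2 fold change of the members moved by less than its spread between libraries (SD 0.103) in all 118 fits with other settings and all 216 that left out 1 library. That SD is of single libraries and not of group differences, so it is a wide limit. Without 1 library the median ran from -0.087 to 0.079 for the cassette in CCR2neg cells. For mac-TFEB against TFEB-TG Cre-neg in CCR2neg cells it ran from -0.108 to 0.025, so both crossed 0. Counts of called members moved as follows. For TFEB overexpression in CCR2neg cells (0 called), DESeq2's Wald test and the replicate block gave 1 and a term for sex gave 2 (3.35% of all genes under the sex term). For the cassette in CCR2neg cells (2 called), DESeq2 gave 6, the sex term 5 (2.23% of all genes) and the libraries of the comparison alone 0. For CCR2pos against CCR2neg in mac-TFEB cells (0), DESeq2 and the block gave 1. For the same comparison in TFEB-TG Cre-neg cells (3), DESeq2 gave 4, the block 7 and the libraries alone 0. Averaged over the 4 kinds (6), DESeq2 gave 7, against 15.4% of all genes, and the block 9. For CX3CR1-Cre against Cre-neg in CCR2neg cells (1), the block gave 4 and the libraries alone 0. The cause of these changes was not tested, except that the fits on single comparisons have fewer libraries. Leaving out 1 library at a time gave 1 to 7 members for the cassette in CCR2neg cells, 0 to 4 in TFEB-TG Cre-neg cells, 0 to 1 for CX3CR1-Cre against Cre-neg in CCR2neg cells, 4 to 8 averaged over kinds and 0 in every other comparison. Under the replicate block, used between genotypes only as an alternative because those numbers do not pair the libraries, Mrpl3 was called in both CCR2neg comparisons of genotypes (-0.84 and -0.96), and apart from the calls given beside the results it changed no other. The comparison of cassette effects between fractions was chosen after seeing the data. Intervals cover spread between libraries, and the lowest members, Mtrf1l among them, rest on too few counts for smaller differences to be detectable.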
